A study of Homo sapiens with 4 samples.

Results

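The sites examined here are those that the PAR-CLIP-seq lists of PRRC2B record under a noncoding gene, that is, under any gene type other than protein-coding: lncRNA, miRNA, snoRNA, pseudogene or unknown. They were taken by gene type alone, without regard to height. The list of full-length PRRC2B (labelled FL) held 143 such records among 1062, on 66 of its 894 distinct sites. The list of the P2 fragment (labelled RBD) held 146 among 749, on 59 of its 571 distinct sites. A site is 1 position on 1 strand, and every site was 100 nt wide. A position could be recorded under several genes, up to 5 of them noncoding, and 34 of the 66 FL sites and 38 of the 59 RBD sites were recorded under a protein-coding gene as well. Altogether 61 noncoding gene names occurred, 25 of them in both lists.

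HEK293T cells, an established human embryonic kidney line, overexpressed PRRC2B with a FLAG tag from a plasmid, beside the PRRC2B of the cells themselves. The tagged protein was either whole or P2, 1 fragment that covers the arginine-glycine-rich sequences thought to bind RNA. All 4 samples, 2 biological replicates of each construct, were fed 4-thiouridine for 16 h, crosslinked at 312 nm and immunoprecipitated through the tag after digestion with RNase T1, and RNA of 19 to 35 nt was sequenced. The replicates of a construct were pooled in its list, so a construct is 1 sample here, no value has a replicate error, and no test was made. A control without tagged protein was not analysed here.

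Most RNA of a cell is noncoding and structural. Ribosomal RNAs are cut from a 45S precursor, whose spacers are discarded, tRNAs carry amino acids, snoRNAs guide the modification and cleavage of ribosomal RNA, and Y RNAs are short cytoplasmic RNAs made by RNA polymerase III. All of them have left copies across the genome, among them many inside the introns of long noncoding RNAs (lncRNAs). Processed pseudogenes are copies of mRNAs pasted back into the genome. A short read from such an RNA may therefore align equally well in several places.

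The sequences below are the sites on which the description turns, read from hg38 on the strand of the site. Capitals mark the stretch that aligned to a structural RNA, and sites without capitals had no such alignment or one of unknown direction. The first pair lies in the ribosomal DNA block of chromosome 21, in the 18S RNA and in the 5′ external spacer.
18S site of height 95 (chr21:8988266-8988365, plus strand): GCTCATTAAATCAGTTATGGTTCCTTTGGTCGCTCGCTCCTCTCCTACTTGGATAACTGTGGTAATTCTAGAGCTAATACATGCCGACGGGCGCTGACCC
5′ spacer site of height 24 (chr21:8250598-8250697, plus strand): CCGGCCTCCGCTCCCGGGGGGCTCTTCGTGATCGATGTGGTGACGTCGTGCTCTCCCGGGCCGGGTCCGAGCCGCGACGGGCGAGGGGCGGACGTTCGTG
Next come sites in tRNAs that are recorded under pseudogenes and lncRNAs. In several of them the site runs past the 3′ end of the tRNA.
NUDT4P2, tRNA-His (chr1:147073201-147073300, plus strand): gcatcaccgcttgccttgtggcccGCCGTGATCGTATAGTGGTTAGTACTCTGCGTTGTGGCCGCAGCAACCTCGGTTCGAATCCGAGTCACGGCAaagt
NUDT4P2, tRNA-Gln (chr1:148032799-148032898, plus strand): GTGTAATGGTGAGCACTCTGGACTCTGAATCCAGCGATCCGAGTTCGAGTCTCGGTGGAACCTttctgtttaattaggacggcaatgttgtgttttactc
PDE4DIPP4, tRNA-Val (chr1:121020684-121020783, minus strand): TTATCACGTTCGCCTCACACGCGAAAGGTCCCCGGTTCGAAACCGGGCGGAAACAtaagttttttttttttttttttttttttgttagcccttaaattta
LINC01962, tRNA-Thr (chr5:181191640-181191739, minus strand): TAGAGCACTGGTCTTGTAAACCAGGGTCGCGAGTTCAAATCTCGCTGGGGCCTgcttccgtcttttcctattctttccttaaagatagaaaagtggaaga
ZNF767P, tRNA-Cys (chr7:149589030-149589129, minus strand): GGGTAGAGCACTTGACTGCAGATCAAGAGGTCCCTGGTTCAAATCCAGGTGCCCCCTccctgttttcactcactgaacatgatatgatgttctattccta
EPCAM-DT, part of a tRNA-Val (chr2:47280716-47280815, minus strand): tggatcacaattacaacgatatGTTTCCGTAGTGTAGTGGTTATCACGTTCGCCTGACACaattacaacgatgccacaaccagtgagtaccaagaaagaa
This site holds a copy of part of a Y RNA.
PLEKHA8P1, RNY5 copy (chr12:45187404-45187503, minus strand): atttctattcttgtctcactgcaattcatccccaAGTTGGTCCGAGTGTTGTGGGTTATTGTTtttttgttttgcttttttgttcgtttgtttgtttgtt
The snoRNA SNORD43 lies whole within its site, whereas the site recorded under SNORD62A and SNORD62B lies in a coding exon of PRRC2B.
SNORD43 (chr22:39319017-39319116, minus strand): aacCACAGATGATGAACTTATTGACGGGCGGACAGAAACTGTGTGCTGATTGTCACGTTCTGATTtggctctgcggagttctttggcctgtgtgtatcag
SNORD62A and SNORD62B, in PRRC2B (chr9:131487156-131487255, plus strand): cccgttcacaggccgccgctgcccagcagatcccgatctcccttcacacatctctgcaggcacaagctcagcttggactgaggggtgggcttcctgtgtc
The next pair lies in processed pseudogenes inside lncRNA introns, the second of them the site richest in purines.
PLPPR5-AS1 (chr1:99008318-99008417, plus strand): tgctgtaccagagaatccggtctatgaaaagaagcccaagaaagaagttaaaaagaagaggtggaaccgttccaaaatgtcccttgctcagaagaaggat
THSD4-AS1 (chr15:71164757-71164856, minus strand): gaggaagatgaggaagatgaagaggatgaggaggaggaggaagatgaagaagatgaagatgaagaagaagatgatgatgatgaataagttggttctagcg
The last sites shown matched nothing and lie in lncRNA introns.
DPH6-DT (chr15:35773251-35773350, plus strand): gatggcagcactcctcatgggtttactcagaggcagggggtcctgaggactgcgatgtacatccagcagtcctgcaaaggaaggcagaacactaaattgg
SNHG31 (chr2:214847423-214847522, plus strand): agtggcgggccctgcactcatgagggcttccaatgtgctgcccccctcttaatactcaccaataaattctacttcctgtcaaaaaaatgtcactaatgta
The mature strands of MIR10A, from RefSeq (GRCh38.p14), have their seed, bases 2 to 8, in capitals.
hsa-miR-10a-5p (chr17:48579904-48579926, minus strand): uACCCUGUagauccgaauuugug
hsa-miR-10a-3p (chr17:48579864-48579885, minus strand): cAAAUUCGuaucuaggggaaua

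Most of the sites recorded under noncoding genes held the sequence of a structural RNA. Each site was searched against ribosomal, transfer, mitochondrial, small nuclear, small nucleolar, Y and other structural RNAs, and a match needed 20 aligned nt, across the site's middle, with at least 90% identity. A match was found at 40 of 66 FL sites (60.6%, 95% Wilson interval 48.5 to 71.5) and at 40 of 59 RBD sites (67.8%, interval 55.1 to 78.3). The share over all sites was 13.6% for FL and 19.1% for RBD, and over sites recorded under protein-coding genes alone it was 9.90% (82 of 828) and 13.5% (69 of 512). In each list 39 of the 40 matches ran in the direction of the RNA, and the remaining match, to a snoRNA at PLPPR5-AS1, was of unknown direction. With 30 aligned nt required, 37 FL sites and 38 RBD sites matched, against 12.1% and 17.7% of all sites. In windows 1000 nt upstream, 1 of 41 FL sites outside the ribosomal precursor and 0 of 33 such RBD sites had a match. On the precursor, where RNA genes follow each other closely, 17 of 25 FL windows and 19 of 26 RBD windows matched. Over the upstream windows of all sites, 43 of 894 in the FL list (4.81%) and 34 of 571 in the RBD list (5.95%) matched.

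When overlapping sites of both lists were merged, they fell on 79 places, of which 42 were occupied in both lists, 24 in the FL list alone and 13 in the RBD list alone. Ribosomal RNA or its precursor accounted for 25 places, tRNA for 7, snoRNA for 4, Y RNA for 3 and mitochondrial ribosomal RNA for 2. A further 11 lay in an exon of a protein-coding gene on the same strand, 6 in an exon of a pseudogene, 1 in a microRNA hairpin and 1 in an exon of a lncRNA. Introns of lncRNAs held 16 places, and 3 lay in none of these by GENCODE.

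**Figure D1:**
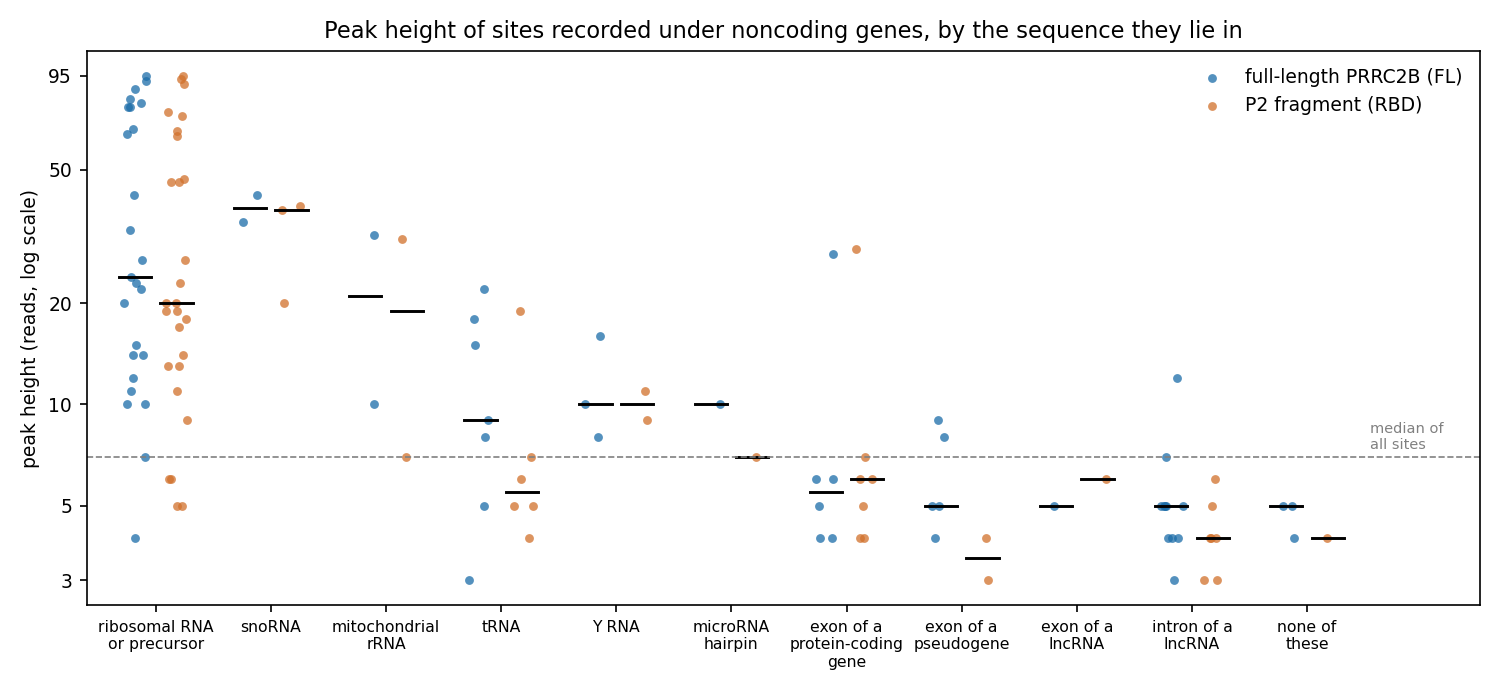
Peak height (reads, log scale) of each site recorded under a noncoding gene, by the sequence it lies in, for full-length PRRC2B (FL, blue) and the P2 fragment (RBD, orange). Points are sites, spread sideways for sight, black bars are medians and the dashed line is the median of all sites, 7 in either list. Sites in ribosomal RNA reached 95, and those in introns of lncRNAs reached 12 with FL and 6 with RBD.

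The ribosomal block of chromosome 21 gave the tallest sites. Between chr21:8196227 and chr21:8988636, on the plus strand, lay 21 FL sites and 22 RBD sites, and every one of them overlapped a site of the other list. They carried 86 of the 143 FL records and 92 of the 146 RBD records. These records stood under the lncRNA names LOC102723553, LOC102724652 and LOC110091777 and the miRNA names MIR3648-1 and MIR3648-2. The sites were also recorded under the protein-coding genes CRYAA and SMIM11, whose records these counts leave out. Their heights had a median of 33 and a range of 7 to 95 with FL, and a median of 25 and a range of 6 to 95 with RBD. All of them matched the precursor at 90% identity or more. The middle 25 nt of these sites occurred 4 to 14 times in the genome for FL and 4 to 13 times for RBD, so that the copy from which a read came cannot be told.

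Along the precursor the sites kept the same order in both lists. The precursor of the RNA45SN1 unit is 13351 nt long, with 18S at 3655 to 5523, 5.8S at 6601 to 6757 and 28S at 7925 to 12990. In the 5′ external spacer, upstream of 18S, FL sites were centred at 451, 549, 663, 1753, 1926, 2706, 3400 and 3553 nt and had heights of 24, 15, 12, 10, 23, 14, 7 and 11. RBD sites of the block lay at 443, 546, 668, 1699, 1919, 2717, 3405 and 3553 nt, with heights of 23, 14, 11, 9, 20, 13, 6 and 13. The spacer is no part of the mature ribosome.

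Within 18S the median height was several times that in the spacer. The tallest place, centred at 3792 and 3798 nt with FL, was recorded at each of 2 copies of the block, with heights of 92 and 95 for FL and of 93 and 95 for RBD. Further FL sites of the block in 18S had heights of 66, 64, 33, 77, 81, 77 and 42 in order along the RNA, and RBD sites of 63, 46, 19, 72, 46, 65, 74 and 27. The median was 71.5 over 10 FL sites (range 4 to 95) and 63 over 11 RBD sites (range 5 to 95) in 18S, the lowest in each list being a 20-nt match outside the block, against 13 over 8 FL and 9 RBD sites in the spacer. Mature 18S and its precursor cannot be told apart within 18S. The authors removed reads of identical sequence, and whether this limited the heights of 18S sites was not tested.

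In 28S the block had 2 tall places, at 8314 nt (FL position) with heights of 79 and 47, and at 10367 nt with heights of 87 and 90, FL before RBD. Another lay at 12605 nt, close to the 3′ end, where 2 places of the block held 22 and 27 with FL and 18 and 19 with RBD. No site of either kind under a noncoding gene was centred in 5.8S or in the internal spacers. Among sites recorded under protein-coding genes alone, 34 FL sites and 29 RBD sites matched the precursor too, and of those in sense, 6 of 31 in the FL list and 6 of 28 in the RBD list were centred within 50 nt of a noncoding-gene site of that list. In all, the precursor matched 25 of 66 noncoding-gene sites in the FL list and 26 of 59 in the RBD list, against 6.60% and 9.63% of all sites.

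**Figure D2:**
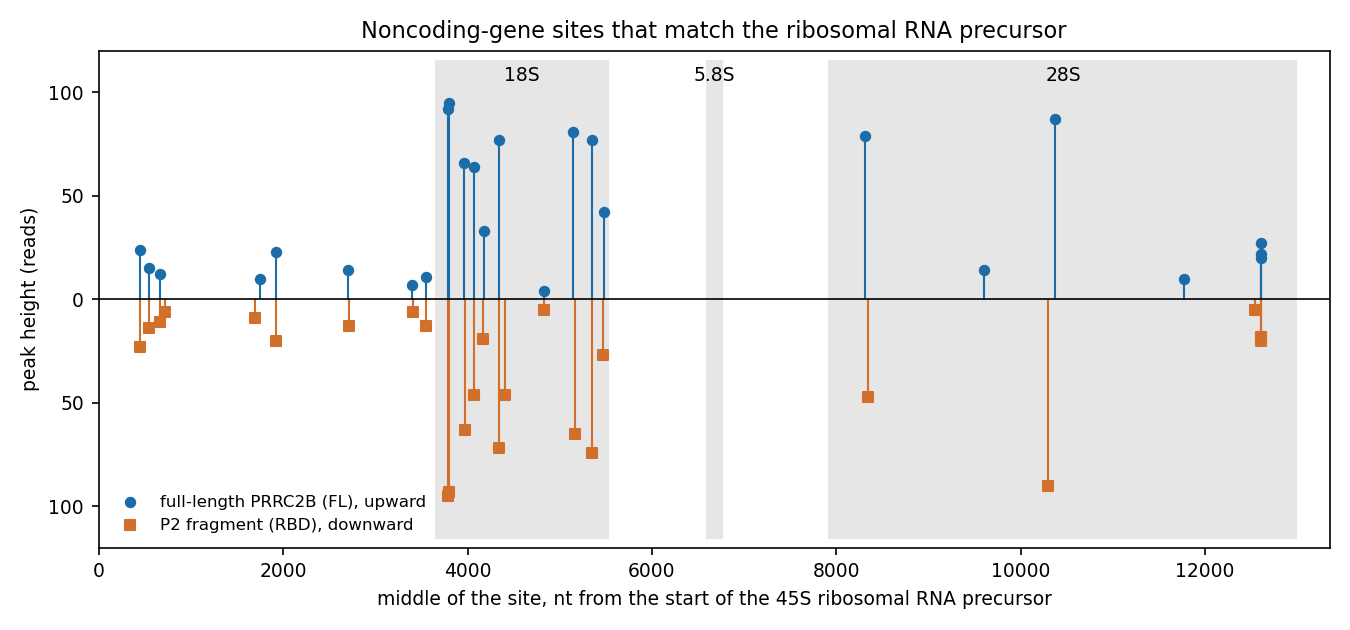
Peak height (reads) of the 25 FL sites (blue, upward) and 26 RBD sites (orange, downward) under noncoding genes that matched the ribosomal RNA precursor, by the position of their middle in nt from its start; grey marks 18S, 5.8S and 28S. Both lists have low sites upstream of 18S, tall ones in 18S and a few in 28S.

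Ribosomal sequence was also recorded outside that block. On the minus strand of chromosome 21, under FRGCA, LOC102724560, LOC102724594 and LOC106780825, the site chr21:14084958-14085057 had a height of 20 with FL and 20 with RBD and matched 28S at 91.0% identity. RBD had a second, overlapping site with a height of 5. LINC01344, a lncRNA, held an FL site of height 10 (chr1:182212419-182212518) with 95.6% identity to 28S over 45 nt. MIR663AHG, the host gene of a microRNA, named an RBD site of height 6 (chr20:26209550-26209649) with 94.0% identity to the 5′ spacer. That site lay 366 nt outside the gene by RefSeq and in an intron of it by GENCODE. These 2 places were in 1 list alone. C8orf34-AS1, an antisense lncRNA, held a place of height 14 with FL and 17 with RBD (chr8:68306206-68306305), where the FL site matched 28S at 91.5% over 71 nt and the RBD site, 3 nt away, did not pass the threshold.

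The 7 tRNA places had FL heights from 3 to 22 and RBD heights from 4 to 19, and 5 of them were in both lists. Under NUDT4P2, a pseudogene of a hydrolase of diphosphoinositol phosphates, the tRNA-His site had a height of 15 with FL and 6 with RBD and the tRNA-Gln site 18 and 5. Among the shared tRNA places these had the highest ratios of FL to RBD height, which are not scaled for depth. LINC01962 held a tRNA-Thr site with heights of 22 and 19 (chr5:181191640-181191739). The minus-strand tRNA-Gly site of chromosome 21 (chr21:17454795-17454894) had 9 with FL and 7 with RBD, and a second RBD site of height 4 covered the other end of the same tRNA. EPCAM-DT, the divergent transcript of EPCAM, held a 38-nt piece of a tRNA-Val at 97.4% identity, with 3 reads for FL and 5 for RBD. The tRNA-Val under PDE4DIPP4 (height 8) and the tRNA-Cys under ZNF767P (height 5), both pseudogenes, were in the FL list alone.

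Where on the tRNA the sites were centred could be read from the alignment. The FL sites lay near the 3′ end at PDE4DIPP4 (nt 68 of 73), LINC01962 (nt 69 of 72), ZNF767P (nt 65 of 72) and the tRNA-Gln of NUDT4P2 (nt 59 of 72), and in the 5′ part at the tRNA-His (nt 26 of 72), EPCAM-DT (nt 28 of 73) and tRNA-Gly (nt 15 of 71). Except at EPCAM-DT, the place itself is a tRNA gene of RefSeq. The tRNA sites recorded under NUDT4P2 and the tRNA-Gly site lay far from the genes named, at least 771634 nt from NUDT4P2 and over 10000 nt from each lncRNA named for the tRNA-Gly.

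Y RNA sequence was found at 3 places, with FL heights from 8 to 16 and RBD heights of 9 and 11 at the shared places. A site recorded under NUDT4P2, up to 2054023 nt from that gene, held an RNY3 copy of 96.6% identity with a height of 10 with FL and 11 with RBD (chr1:148355584-148355683). The RNY5 match under PLEKHA8P1 covered 29 nt at 100% identity and was an FL site of height 8. None of the 3 is a Y RNA gene of RefSeq.

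Mitochondrial ribosomal RNA was matched at 2 places, both in both lists. MTRNR2L9 is a nuclear copy of the mitochondrial 16S RNA gene and held a site of height 32 with FL and 31 with RBD (chr6:61574135-61574234), with 97.0% identity to the 16S RNA over 100 nt. ZFHX4-AS1 held a site of height 10 and 7 (chr8:76645549-76645648), with 96.6% identity to the end of the 12S RNA over 59 nt. Whether the reads came from mitochondria or from these copies was not tested.

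SNORA18, SNORA7A, SNORD43 and SNORD118 were recorded at their own place, with heights from 20 to 42. Sites in lncRNA introns without a structural match reached 12 with FL and 6 with RBD, whereas lncRNA records in the ribosomal block reached 95. SNORA18 (chr11:93733427-93733526) had a height of 42 with FL and no RBD site, and SNORD43 (chr22:39319017-39319116) had 39 with RBD and no FL site. SNORA7A (chr3:12840271-12840370) had 35 with FL and 20 with RBD. SNORD118, also called U8, which is required for the maturation of 28S and 5.8S, had 38 with RBD (chr17:8173453-8173552). At that place the FL list held a site of height 49 recorded under TMEM107 alone, so the FL list lacks the name SNORD118 but holds the place. SNORA18 and SNORA7A belong to the H/ACA class, which guides pseudouridylation, and SNORD43 to the C/D class, which guides methylation.

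The snoRNA sites overlapped the annotated snoRNA by 61 of 132 nt at SNORA18, 59 of 139 nt at SNORA7A in the FL list, 100 of 137 nt at SNORD118 and 62 of 62 nt at SNORD43. At SNORA18 and SNORA7A the middle of the FL site lay near the 3′ end, at nt 121 and nt 130. The heights that the authors' background model expected at these snoRNAs were 15.2 for SNORA18, 7.37 for SNORA7A with FL and 4.22 with RBD, 13.3 for SNORD118 and 12.6 for SNORD43, and the observed heights were 2.76 to 4.75 times as large. By comparison the median expected height was 0.03 over FL records and 0.02 over RBD records of lncRNAs, and their lowest height was 3. Protein-coding records had a median expected height of 0.03 and a lowest height of 3 in either list. The lowest height of a record that overlapped its snoRNA was 35 with FL and 20 with RBD, both at SNORA7A.

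The site recorded under SNORD62A and SNORD62B lay in neither of them. It had a height of 28 with FL and 29 with RBD, at 1455 nt from SNORD62A and 3281 nt from SNORD62B, in a coding exon of PRRC2B, which is the host gene of both. The plasmid held whole PRRC2B in the FL samples and the P2 fragment alone in the RBD samples. Whether the site lies in the part that encodes P2 was not determined. Whether the reads came from plasmid transcripts or from those of the genome was not tested.

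The microRNA gene with a site of its own was MIR10A, whose hairpin lies in the HOXB cluster. The site had a height of 10 with FL (chr17:48579864-48579963) and 7 with RBD, starting 2 nt apart. The FL site overlapped the hairpin by 84 of 110 nt and covered both mature strands printed above, and its middle lay in miR-10a-5p. The same position was recorded under HOXB3, HOXB4 and HOXB6, and by GENCODE it also lies in an exon of an unnamed lncRNA. The remaining miRNA records, 24 of 25 with FL and 28 of 29 with RBD, were those under MIR3648-1 and MIR3648-2 in the ribosomal block. The nearest of them lay 41995 nt (FL) and 41987 nt (RBD) from the hairpin that they name.

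Exons of protein-coding genes held 11 places outside structural RNAs, among them the PRRC2B site above. By GENCODE the 4 snoRNA places lie in exons of such genes too: TAF1D (SNORA18), RPL32 (SNORA7A), RPL3 (SNORD43) and TMEM107 (SNORD118). NRIP1, a nuclear receptor corepressor, held a site of height 4 in either list (chr21:14966439-14966538) that was recorded under FRGCA and 3 further lncRNA names. In the FL list alone were sites in CTNND1, which encodes p120 catenin (height 6, recorded under the readthrough TMX2-CTNND1), CDR2 (height 4, under RRN3P3), CDIPT (height 6) and the kinase gene MAPK3 (height 5), the last 2 under LOC388242 and LOC613038. In the RBD list alone were 2 sites in ZNF664 (heights 5 and 6, under the readthrough ZNF664-RFLNA), 2 in CABIN1, an inhibitor of calcineurin (heights 7 and 6, typed as lncRNA in the list), and 1 in GCLC, the catalytic subunit of glutathione synthesis (height 4, under LOC101927136). The RefSeq table types CABIN1 and the readthrough ZNF664-RFLNA as protein-coding.

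Processed pseudogenes on the strand of the site held 6 places, most of them in 1 list. PLPPR5-AS1 was the place found in both, with a height of 9 for FL and 3 for RBD. FL alone had sites in TUBAP2, a tubulin pseudogene, under DISC1FP1 (height 8), in HMGB1P6 under THSD4-AS1 (height 5), in RPS15AP40, a pseudogene of a ribosomal protein gene, under LOC101928627 (height 4), and in a further processed pseudogene under FAM153CP (height 5), where GENCODE also has an exon of FAM153CP itself. RBD alone had a site in GAPDHP71 under LINC01411 (height 4). The middle 25 nt of these sites occurred 2 to 9 times in the genome, and whether reads of the parent mRNAs aligned there was not tested.

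Sites outside structural RNAs, pseudogenes and protein-coding exons were low. MFSD14C, a transcribed pseudogene, held a place in an exon of a lncRNA and of nothing else by GENCODE, with a height of 5 for FL and 6 for RBD (chr9:97013505-97013604). In introns, DPH6-DT had 4 with FL and 3 with RBD (chr15:35773251-35773350), and a second place of C8orf34-AS1 had 7 and 5 (chr8:68306339-68306438). LOC101929532 had 5 and 4 (chr2:162123732-162123831), where GENCODE has no gene on this strand. SNHG31, a snoRNA host gene, had the tallest intronic lncRNA site without a match, 12 with FL (chr2:214847423-214847522), and no RBD site, and its middle occurred 4 times in the genome. The other FL-only lncRNA sites had heights of 3 to 5 and were recorded under NUTM2A-AS1, LINC01599, SUZ12P1, TTC28-AS1, PAQR9-AS1, LINC02147, LINC02228, LOC100507464, LOC101928269 and LOC105373064. The LOC101928269 site lay 257818 nt outside that gene, in an intron of RUNX1. The PAQR9-AS1 site lies in an intron of the protein-coding gene U2SURP as well. The RBD-only sites had heights of 3 to 6 and were recorded under LINC01376, ADAMTS9-AS2, LINC00887, LOC101929710 and LOC102546299. By RefSeq the LINC01376 site lay 265231 nt and the LOC102546299 site 175978 nt outside the gene named. GENCODE has the LINC01376 site in an intron of LINC01376. The LOC101929710 site also lies in an intron of CAST, under which it was recorded too. At heights of 3 to 6, a site missing from the other list was not read as a difference.

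Compared with sites under protein-coding genes alone, the noncoding-gene sites were more often shared, taller and more often repeated in the genome. Overlap with the other list was found for 42 of 66 FL sites (63.6%, interval 51.6 to 74.2; 35.3% of all FL sites) and for 46 of 59 RBD sites (78.0%, interval 65.9 to 86.6; 56.0% of all RBD sites). Among sites with a structural match, 35 of 40 FL and 38 of 40 RBD sites were shared. Matched sites under protein-coding genes alone were shared less often, 55 of 82 with FL (67.1%) and 55 of 69 with RBD (79.7%). Their intervals, 56.3 to 76.3 and 68.8 to 87.5, overlapped those of the matched noncoding-gene sites, 73.9 to 94.5 and 83.5 to 98.6. Among the sites without a match, 7 of 26 FL sites (26.9%) and 8 of 19 RBD sites (42.1%) were shared, against 29.4% and 49.4% of unmatched sites under protein-coding genes alone. These last values lie within the intervals of the noncoding-gene sites, 13.7 to 46.1 for FL and 23.1 to 63.7 for RBD. The intervals cover counting error only, since copies of 1 RNA are not independent.

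Median height was 10 over the FL sites (quartiles 5 and 23.75) and 9 over the RBD sites (quartiles 5 and 25), against 7 over all sites of either list. At least 10 reads stood at 35 of 66 FL sites and 29 of 59 RBD sites, whereas 26.6% and 29.1% of all sites had as many. Of these tall sites, 32 of 35 and 27 of 29 had a structural match. The 3 tall FL sites without one were those in PRRC2B, SNHG31 and MIR10A, and the 2 tall RBD sites without one were those in PRRC2B and C8orf34-AS1. Matched sites had a median height of 19 in either list. Matched sites under protein-coding genes alone had 16.5 with FL and 15 with RBD. Sites without a match had a median height of 5 in either list, near the 6 of unmatched sites under protein-coding genes alone. The middle 25 nt occurred more than once in the genome at 40 of 66 FL sites (60.6%) and 32 of 59 RBD sites (54.2%), compared with 18.5% and 18.9% of all sites.

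**Figure D3:**
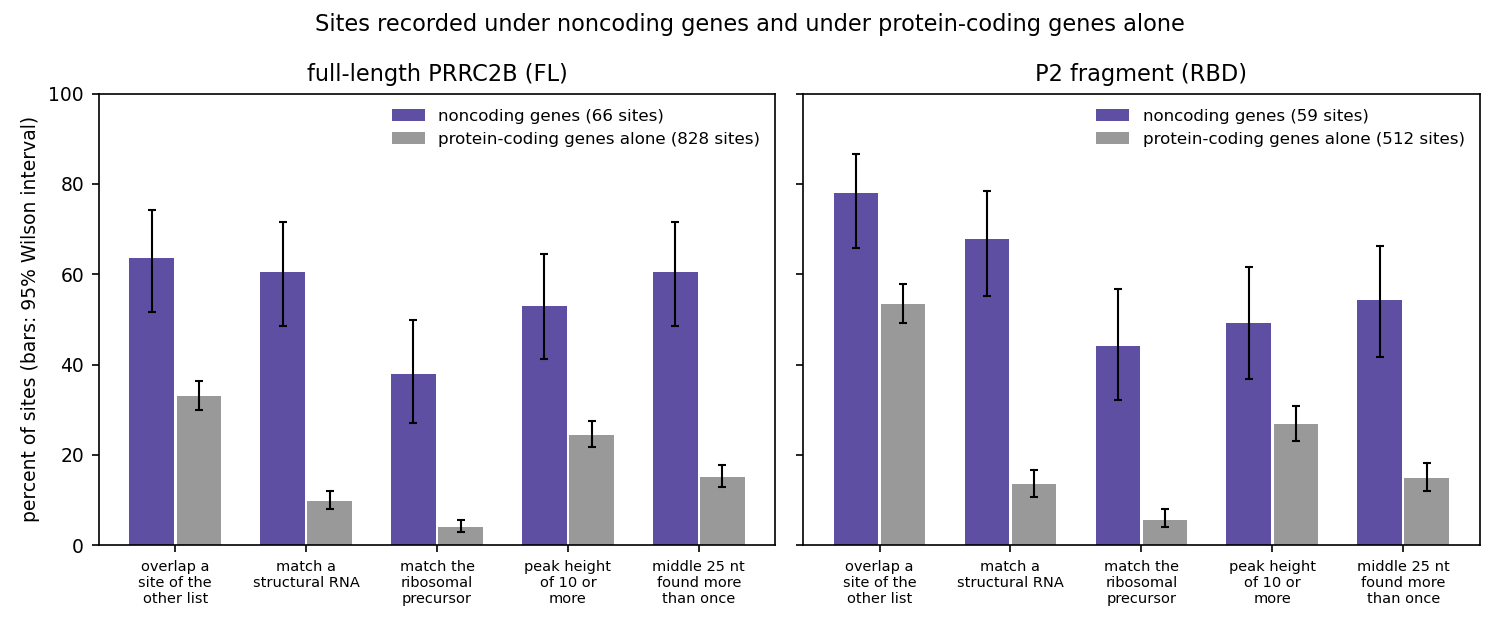
Percent of sites with each feature among sites recorded under noncoding genes (purple) and under protein-coding genes alone (grey), for full-length PRRC2B (66 and 828 sites) and the P2 fragment (59 and 512 sites). Bars are shares and lines their 95% Wilson intervals, which cover counting error only. The purple bar is the higher of each pair.

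Heights of overlapping sites were ordered alike in the lists. Over the 42 FL sites with an RBD partner, Spearman's rho of the heights was 0.940, given as a description over sites that share libraries. On the precursor rho was 0.970 over 24 pairs, and elsewhere it was 0.799 over 18 pairs. Over 274 pairs under protein-coding genes alone it was 0.844. The FL height was the larger at 30 of the 42 noncoding-gene pairs, equal at 3 and the smaller at 9. Under protein-coding genes alone it was the larger at 177 of 274 pairs, equal at 35 and the smaller at 62. Because the heights are not scaled for depth, the ratio of FL to RBD has no fixed zero, and only its spread was read. The log2 ratio had a median of 0.18 and an SD of 0.50 over the 42 noncoding-gene pairs, against 0.22 and 0.45 over 274 pairs under protein-coding genes alone. On the precursor the SD was 0.29 over 24 pairs and elsewhere it was 0.65 over 18 pairs. How the removal of reads of identical sequence bears on the likeness of tall sites was not tested. The highest log2 ratios were 1.85 for the tRNA-Gln and 1.32 for the tRNA-His of NUDT4P2 and 1.58 for PLPPR5-AS1 (9 and 3 reads), and the lowest was -0.74 for EPCAM-DT (3 and 5 reads). Starts of paired sites differed by a median of 2.5 nt and at most 68 nt.

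**Figure D4:**
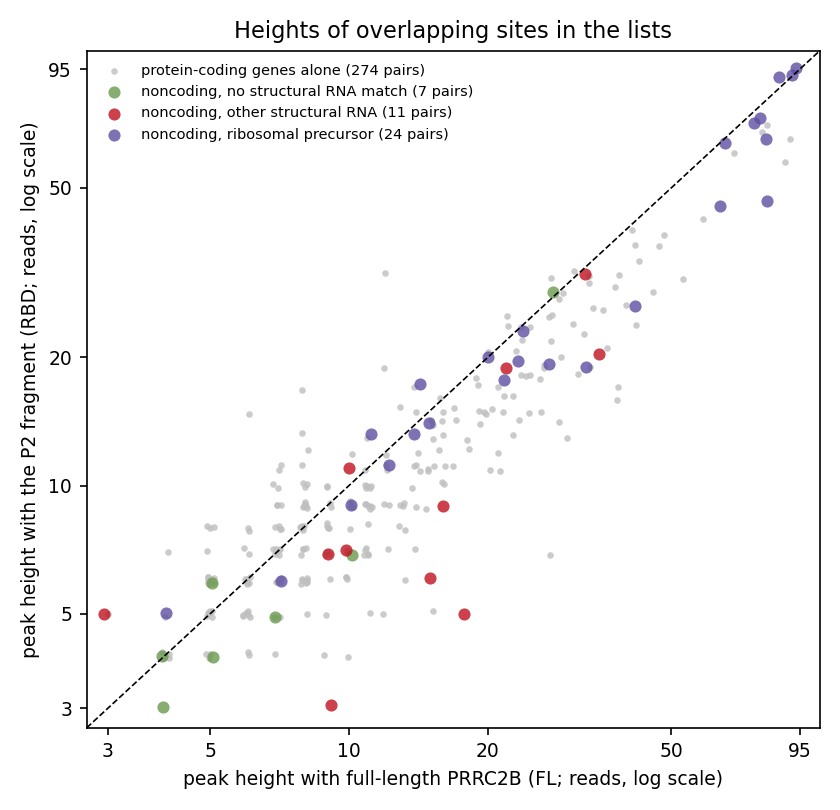
Peak height with the P2 fragment (RBD) against peak height with full-length PRRC2B (FL) for overlapping sites, both in reads on log scales, with the dashed line at equal height and points spread slightly for sight. Noncoding-gene sites on the ribosomal precursor (24 pairs) run along the line up to 95, and the red points far below it at FL heights of 9 to 18 are PLPPR5-AS1 and the tRNA sites of NUDT4P2.

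Many records name a gene in which the site does not lie. Set against the RefSeq positions of the genes, 110 of 143 FL records (76.9%) and 121 of 146 RBD records (82.9%) lay outside the gene they were recorded under, and 107 and 118 of them were over 10000 nt away on the same chromosome. At the level of sites, 33 of 66 FL sites and 35 of 59 RBD sites lay outside every noncoding gene they were recorded under. GENCODE, unlike RefSeq, has the sites under MIR663AHG, LINC01376 and THSD4-AS1 in introns of the gene named. The minus-strand lncRNA FRGCA, for example, lies at chr21:43140523-43141092, at least 25685678 nt from its sites. Records on chromosome 21 in the ribosomal block or on the minus strand under FRGCA and the names beside it made up 98 of the 110 FL records and 112 of the 121 RBD records that lay outside. The RefSeq table also types LOC102723553, LOC102724652, LOC102724560 and LOC102724594 as protein-coding, and such genes accounted for 48 FL records and 57 RBD records.

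At each site of the ribosomal block with several noncoding records, the expected height and the authors' p-value differed between names. As an example, the FL site chr21:8254096-8254195, in 18S, had a height of 66 under each of 5 noncoding names. Its expected height was 0.03 under LOC102724652, 0.04 under LOC102723553, 0.15 under LOC110091777 and 1.28 under both MIR3648-1 and MIR3648-2. The authors' p-values were 1e-100, 1.88e-06, 1e-100 and 5.5e-08 in that order, the last under both MIR3648 names.

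The median base composition was close to that of the other sites. The median share of U was 24% over FL sites and 21% over RBD sites, against 22% and 23% under protein-coding genes alone. C and U together made up a median of 50% in either list, with a range of 18% to 71% for FL and 28% to 70% for RBD, against medians of 51.5% and 52% under protein-coding genes alone. A U in the middle 3 positions was found at 52 of 66 FL sites (78.8%) and 36 of 59 RBD sites (61.0%), against 58.1% and 66.6% under protein-coding genes alone, so that the difference ran in opposite directions in the lists. The HMGB1P6 site under THSD4-AS1 was the extreme, with 82% G and A.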

How the data were processed

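PAR-CLIP-seq lists of 2 constructs were analysed, each pooled by the authors from 2 biological replicates, so p-values between constructs and paired comparisons could not be made. Per the study's methods, the authors trimmed the reads, removed duplicates, mapped them to hg38 with Bowtie allowing 1 mismatch, called peaks with CLIP Tool Kit and kept peaks around T-to-C conversions. How reads with several equally good alignments were placed is not given in the sources used here. The deposited signal is the peak height, a number of overlapping reads that is not scaled for depth. The depth of the libraries is unknown, so heights were compared within a list and ratios were read by their spread alone. The p-values in the deposited peak names are the authors'.

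Records with a gene type other than protein-coding were taken, and equal positions were counted once. Sites were called shared at an overlap of at least 1 nt on the same strand. BLAST 2.17.0 compared every site with structural RNAs read from the genome at RefSeq positions (at least 20 aligned nt, 90% identity), and its middle 25 nt were counted in the genome on both strands. Places were annotated with GENCODE 44 and genes placed with the RefSeq table (GRCh38.p14). Sequences were read with pysam 0.24.0, and shares have 95% Wilson intervals. The pairing and the search were checked on simulated data. Alternatives to the overlap, identity, aligned length, height, p-value, record counting and gene window were tried. Apart from members withheld from naming, given in full were sites shared outside the chromosome 21 ribosomal DNA, sites with a height of at least 10, and snoRNA and miRNA records; ribosomal DNA sites were given along the precursor, and MIR3648 records and other sites by gene name, count and range. The members and the lists were chosen with earlier results of these data known. Those members are counted but not reported here by name or sequence.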

Additional observations from a re-analysis of the deposited data

How the results depend on the processing

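Of 51 alternative values, 28 stayed near the reported value and 23 moved further. Near meant within 1.5 times for counts and medians, the 95% interval for shares and 1 SD for ratios. A change of sign could be recorded for the height ratio alone, and none occurred there. Counting every record in place of positions gave 143 FL and 146 RBD entries, with 81.8% and 91.1% shared and median heights of 22 and 19. Without positions also recorded under a protein-coding gene, 32 FL and 21 RBD sites were left, 37.5% and 57.1% of them shared, and the FL median height was 5. At a height of 10 or more, 35 and 29 sites were left, and with that height in both lists 74.3% and 96.6% were shared. Without sites that match a structural RNA, 26.9% and 42.1% were shared and the median height was 5 in either list. Without the ribosomal precursor the FL median height was 5, and 43.9% and 63.6% were shared, the latter alternative being chosen after seeing the data. With an overlap of at least 90 nt, 62.7% of RBD sites were shared. The cause was not tested. No paired analysis was possible because the 2 replicates of a construct are merged in its list, and for the same reason no replicate could be left out. Library depth is unknown, so sites of 3 to 6 reads limit what can be said of presence in 1 list.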
